A study of Homo sapiens with 6 samples.

Results

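The protocadherin genes of chromosome band 5q31 were described in HL60 cells with and without a CRISPR/Cas9-directed deletion of SKI. Members were chosen by symbol, as every alpha, beta and gamma clustered protocadherin of the count table together with PCDH12, a single-copy protocadherin gene of the same band. They were 56 of the 56638 gene names counted, made up of 16 alpha, 18 beta and 21 gamma genes and PCDH12. Earlier fold changes of this same comparison were known when the set was put together, and PCDH12 was added because it went the other way. The differences of these members between the groups are therefore given as a description, with no test. HL60 cells come from a human promyelocytic leukaemia, and the SKI protein is a transcriptional co-repressor with SMAD proteins among its partners. RNA was sequenced from 3 libraries of a line deleted for SKI, numbered 3 in the labels, and from 3 libraries of a line carrying a CRISPR/Cas9 control, numbered 1. All cells were grown in RPMI medium with 10% FCS. Each group was 1 line, so the effect of the deletion and a difference between the lines cannot be told apart. Whether the replicates were separate cultures is not stated, so p-values refer to the spread among these 6 libraries alone, and that spread may be technical.

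Clustered protocadherins are cell-adhesion proteins of the cadherin superfamily that are best known as a surface identity code of neurons. In the alpha and gamma clusters each gene begins with its own large variable exon, which encodes the extracellular domains, the membrane span and a part of the cytoplasmic tail, and which is spliced to a set of short constant exons shared by the whole cluster. Beta genes are single exons without a constant part. Each variable exon has its own promoter, chosen with the help of CTCF and cohesin, which bind a conserved promoter element and bring it to an enhancer, while DNA methylation and the SMCHD1 protein hold unused promoters silent. PCDH12 lies outside the clusters, has no part in this exon sharing and is known from endothelial cells and placenta.

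The gamma constant exons are shown because they set how the counts of this family must be read. In GENCODE 29 (GRCh38, a later build than the hg19 build named for the counts) they lie at chr5:141494807-141494865, chr5:141505393-141505481 and chr5:141510947-141512979 on the plus strand, a total of 2181 bases. Full transcripts of 20 gamma genes carried the same 372 coding bases of these exons. The first 148 of them, the whole of the first and second constant exon, run as follows with the second exon in capitals.
gamma constant coding sequence: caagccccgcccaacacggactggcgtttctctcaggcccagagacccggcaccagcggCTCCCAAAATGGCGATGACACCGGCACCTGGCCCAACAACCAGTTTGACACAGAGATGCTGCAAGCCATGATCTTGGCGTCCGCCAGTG

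The junctions of 4 gamma transcripts show where the private part ends. PCDHGA4 had no read of its own in any library, PCDHGA6 had own reads almost only in SKI knockout libraries, and PCDHGA10 and PCDHGA12 had the most own reads in control libraries. The last 30 bases of the variable exon are in lower case and the first 30 bases of the constant exons are in capitals.
PCDHGA4 junction: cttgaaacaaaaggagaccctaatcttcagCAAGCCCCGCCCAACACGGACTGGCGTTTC
PCDHGA6 junction: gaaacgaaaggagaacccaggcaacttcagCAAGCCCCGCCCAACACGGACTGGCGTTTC
PCDHGA10 junction: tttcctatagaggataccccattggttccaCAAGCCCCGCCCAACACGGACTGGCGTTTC
PCDHGA12 junction: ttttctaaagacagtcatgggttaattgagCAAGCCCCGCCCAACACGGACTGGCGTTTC

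Reads in the constant exons had been counted for every gamma gene. PCDHGA3, PCDHGB1 and PCDHGA4 had identical counts in all 6 libraries, namely 92, 111 and 66 reads in SKI knockout replicates 1, 2 and 3 and 160, 256 and 141 reads in control replicates 1, 2 and 3. No gamma gene other than PCDHGA11 had a lower count in any library. In 8 of 20 gamma genes the count was within 3 reads of this lowest value in every library, and 11 of 20 had at most 10 further reads over the 6 libraries. The deposited length of 12 gamma genes equalled that of the GENCODE 29 transcript with the constant exons. PCDHGA11 had 92, 117 and 50 reads in SKI knockout libraries and 136, 194 and 125 reads in control libraries, up to 62 reads below the lowest value of the others, and its deposited length was 3936 bases against 4647 bases for its transcript. The lowest count over the other 20 genes is called the shared gamma count here, and the rest of a gene's count its own reads. A read that crosses from a variable exon into the constant exons falls in the shared count, so own reads undercount the use of a variable exon.

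**Figure D1:**
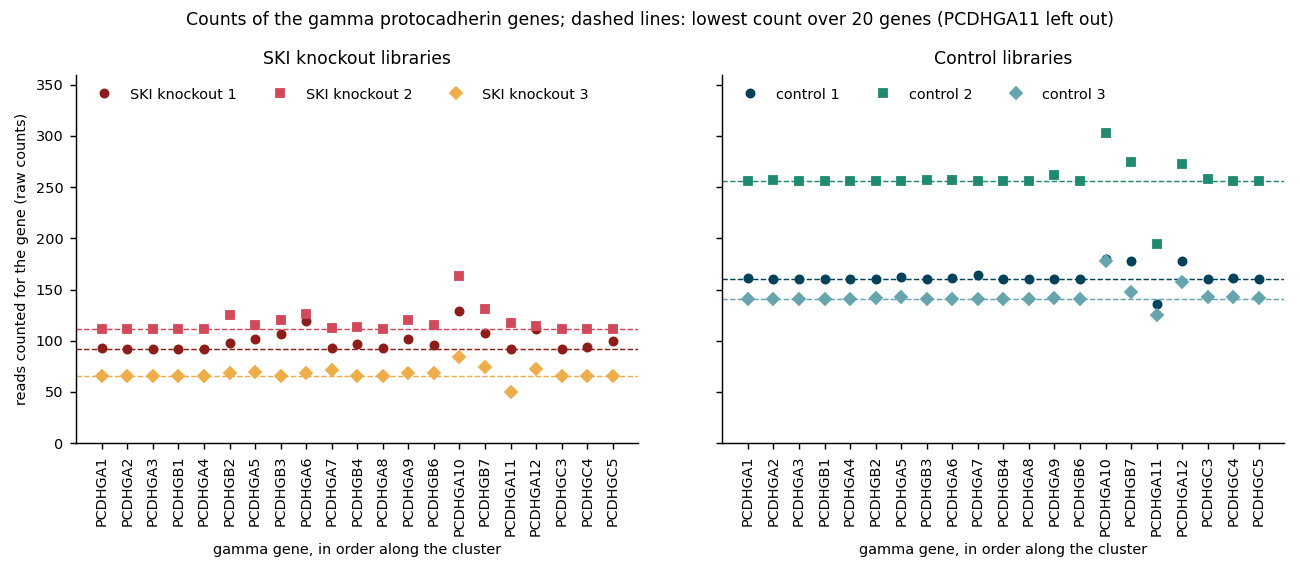
Raw read counts (vertical axis) of the 21 gamma genes in their order along the cluster (horizontal axis), with SKI knockout libraries in the left panel and control libraries in the right one. Dashed lines mark the shared count of each library, 66 to 111 reads in SKI knockout and 141 to 256 reads in control, on which most genes sit, with PCDHGA10 above it and PCDHGA11 below it in control.

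Of the 56 members, 24 had enough reads to be tested by edgeR's filter for low counts, namely 21 gamma genes, PCDHB9, PCDHB14 and PCDH12. The gamma genes passed on the reads they share. The remaining 32 comprised all 16 alpha genes and 16 beta genes, and 19 of them, 9 alpha and 10 beta, had 0 reads in all 6 libraries. Just inside the filter, PCDHB9 had 58 reads over the 6 libraries, and just outside it PCDHA1 had 27.

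Library totals were between 47930276 and 56280696 counts in SKI knockout and between 49684362 and 58553247 in control. SKI itself fell, at 40.7 to 59.6 CPM (counts scaled to a common library size, by edgeR's TMM factors) in SKI knockout against 63.9 to 88.5 CPM in control (log2 fold change -0.73, SE 0.19, edgeR quasi-likelihood test with Benjamini-Hochberg adjusted p = 0.0282). The call was lost with library totals in place of TMM and without SKI knockout replicate 2, control replicate 2 or control replicate 3, with adjusted p between 0.0673 and 0.136 by edgeR. MPO, the granule peroxidase that marks HL60, was present at 2562 to 8538 CPM in SKI knockout and 11626 to 13987 CPM in control, while ELANE, another granule gene, was at or near 0. The 9 myeloid markers summed to 3255 to 9150 CPM in SKI knockout and 12604 to 14932 CPM in control, mostly from MPO. Of the 8 tested, 5 fell and 1 rose (75% past the threshold, against 11.8% of all tested genes). The gene that rose was CSF3R (log2 fold change 1.28, edgeR adjusted p = 0.000795). In bulk RNA, fewer cells of a type and less RNA per cell cannot be told apart. Of 16340 tested genes, 1932 passed an adjusted p of 0.05, which is 11.8%, with 6.19% higher and 5.63% lower in SKI knockout.

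The shared gamma count stands for reads in the constant exons and leaves out those private to the variable exons. It amounted to 1.66, 2.30 and 1.26 CPM in SKI knockout replicates 1, 2 and 3, and to 3.35, 4.34 and 2.48 CPM in control replicates 1, 2 and 3. The groups did not overlap, and SKI knockout replicate 2 and control replicate 3 were close together. The mean was 1.74 ± 0.524 CPM in SKI knockout and 3.39 ± 0.931 CPM in control (SD, n = 3 each), a fitted log2 fold change of -0.97 with a standard error of 0.31. Per kilobase of constant exon the level was 0.797 ± 0.240 CPM in SKI knockout and 1.56 ± 0.427 CPM in control. For comparison, PCDH12 stood at 1.66 ± 0.399 CPM per kilobase of gene in SKI knockout and 0.0897 ± 0.0154 CPM in control.

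Fold changes of the 21 gamma genes repeat this one measurement. They ranged from a log2 fold change of -0.97 for PCDHGC3 to -0.72 for PCDHGA10, and the median over the 23 tested clustered genes was -0.93, against -0.01 over all tested genes. The group ranges did not overlap in 15 of the 23, all gamma genes and all lower in SKI knockout, where 16.1% of all tested genes had ranges that did not overlap and were lower. The 6 gamma genes with overlapping ranges were PCDHGB2, PCDHGB3, PCDHGA6, PCDHGA10, PCDHGB7 and PCDHGA11. By edgeR's quasi-likelihood test 0 of 23 clustered genes passed an adjusted p of 0.05 and 20 were lower at an unadjusted p under 0.05, against 5.63% and 13.0% of all tested genes. DESeq2's Wald test put 18 past the adjusted threshold, all lower, where 7.45% of all genes were lower at that adjusted threshold. Of the gamma genes, 18 were lower at an adjusted p under 0.05 in the authors' deposited table, where 6.35% of all genes were. Nothing is read from these counts, because the comparison was known when the genes were chosen and the gamma genes share their reads.

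Own reads did not follow the shared count. Summed over 20 genes they were 162, 133 and 48 reads in SKI knockout replicates 1, 2 and 3, and 65, 94 and 69 reads in control replicates 1, 2 and 3. SKI knockout replicates 1 and 2 lay above the control libraries and SKI knockout replicate 3 lay below them, so the groups overlapped. As CPM the sums were 2.93, 2.75 and 0.915 in SKI knockout and 1.36, 1.60 and 1.22 in control. Set against the shared count, there were 176, 120 and 72.7 own reads per 100 shared reads in SKI knockout, and 40.6, 36.7 and 48.9 in control. On this ratio the groups did not overlap, and the 3 SKI knockout libraries spread more widely than the 3 control libraries. The ratio divides by the shared count, and the lower gamma counts of SKI knockout were known when the genes were chosen. Nothing is therefore read from this separation.

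**Figure D2:**
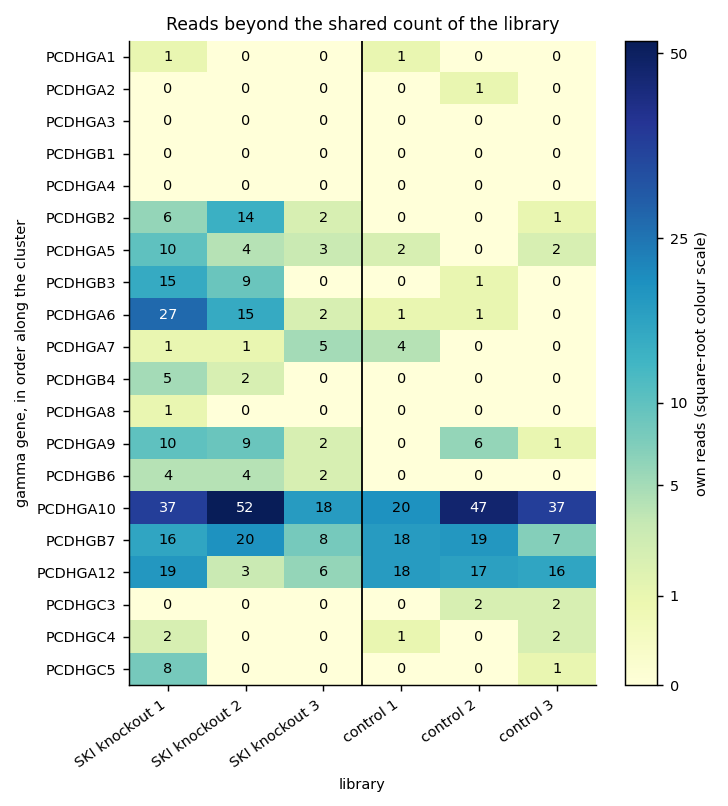
Own reads of each gamma gene (rows, in order along the cluster) in each library (columns, SKI knockout on the left and control on the right), printed in the cells and coloured on a square-root scale. PCDHGA10, PCDHGB7 and PCDHGA12 carry reads in every library, and PCDHGA6, PCDHGB3 and PCDHGB2 do so almost only in SKI knockout replicates 1 and 2.

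PCDHGA10, PCDHGB7 and PCDHGA12, which lie close together near the 3′ end of the variable exons, held most own reads of the control libraries. PCDHGA10 had 37, 52 and 18 own reads in SKI knockout and 20, 47 and 37 in control, which are overlapping groups with nearly equal totals of 107 and 104 (log2 fold change 0.15, SE 0.44). PCDHGB7 had 16, 20 and 8 own reads in SKI knockout and 18, 19 and 7 in control, again overlapping (log2 fold change 0.06, SE 0.51). PCDHGA12 had 19, 3 and 6 own reads in SKI knockout and 18, 17 and 16 in control (log2 fold change -0.83, SE 0.55). SKI knockout replicate 1 was at the control level of PCDHGA12 and SKI knockout replicates 2 and 3 were below it. Per kilobase of variable exon, PCDHGA10 stood at 0.286 ± 0.151 CPM in SKI knockout and 0.256 ± 0.0785 CPM in control.

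Several genes before PCDHGA10 had own reads chiefly in SKI knockout. PCDHGA6 had 27, 15 and 2 own reads in SKI knockout and 1, 1 and 0 in control. PCDHGB3 had 15, 9 and 0 in SKI knockout and 0, 1 and 0 in control, and PCDHGB2 had 6, 14 and 2 in SKI knockout and 0, 0 and 1 in control. For PCDHGA6 and PCDHGB2 every SKI knockout library was above every control library, by 2 reads against 1 at the closest. On whole-gene counts, 16.0% of all tested genes had ranges that did not overlap and were higher. For PCDHGB3 SKI knockout replicate 3 had no own read. PCDHGA5 had 10, 4 and 3 own reads in SKI knockout and 2, 0 and 2 in control, also without overlap. PCDHGB6 had 4, 4 and 2 in SKI knockout and none in control. PCDHGA9 had 10, 9 and 2 in SKI knockout and 0, 6 and 1 in control, with overlap. PCDHGA7, which lies among these genes, also overlapped, with 1, 1 and 5 in SKI knockout and 4, 0 and 0 in control. Counted over the 20 genes, 11 had more own reads in SKI knockout, 4 had fewer and 5 had equal totals. These totals are raw reads, not scaled to library size. Some differ little, as for PCDHGA8 (1 against 0) and PCDHGA10 (107 against 104), so nothing is read from the tally.

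The C-type gamma genes, the isoforms at the end of the cluster that in mouse neurons are expressed without the stochastic choice of the others, had few own reads. PCDHGC3 had none in SKI knockout and 0, 2 and 2 in control. PCDHGC4 had 2, 0 and 0 in SKI knockout and 1, 0 and 2 in control, and PCDHGC5 had 8, 0 and 0 in SKI knockout and 0, 0 and 1 in control. All 8 own reads of PCDHGC5 in SKI knockout came from replicate 1. PCDHGA1, PCDHGA2 and PCDHGA8 had at most 1 own read in any library.

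Alpha genes had few reads in either line. The lowest count over the 15 alpha genes with constant exons was 0 in every library, so no read was counted for all of them in common. If constant-exon reads were counted for every alpha gene, this allows an alpha constant-exon level of up to 0.0621 CPM in SKI knockout and 0.0628 CPM in control (3 counts, counting error only). Whether they were so counted is not stated. All alpha counts together summed to 14, 12 and 17 reads in SKI knockout and 7, 9 and 3 in control. PCDHA1 had the most reads of any alpha gene over the 6 libraries, with 6, 6 and 12 reads in SKI knockout and 0, 3 and 0 in control. PCDHA9 had 4, 3 and 3 reads in SKI knockout and 5, 4 and 3 in control, with overlapping groups. In GENCODE 29, exons of PCDHA1 and PCDHA9 overlap AC005609.5 and AC005609.2 on the opposite strand by 398 and 592 bases.

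Beta genes were low in both lines, and 8 of 18 had at least 1 read. Their counts summed to 33, 37 and 51 reads in SKI knockout and 16, 32 and 26 in control, so that the lowest SKI knockout sum was 1 read above the highest control sum. PCDHB14 had 13, 20 and 32 reads in SKI knockout and 4, 21 and 12 in control (log2 fold change 0.91, SE 0.53). PCDHB9 had 9, 10 and 17 reads in SKI knockout and 11, 5 and 6 in control (log2 fold change 0.74, SE 0.52). Both genes had overlapping groups, and their exons overlap other transcribed features on the same strand in GENCODE 29, by 169 bases for PCDHB14 and 337 bases for PCDHB9. PCDHB10, with the most reads among the untested beta genes, had 6, 3 and 1 reads in SKI knockout and 0, 3 and 4 in control. Deposited lengths of the alpha and beta genes were near double a GENCODE 29 transcript in 17 of 34 cases, so no level per length is given for them.

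PCDH12 was the member added for being higher in SKI knockout. It had 593, 434 and 751 reads in SKI knockout replicates 1, 2 and 3 and 33, 29 and 37 reads in control replicates 1, 2 and 3. Every SKI knockout library was far above every control library, and 16.0% of all tested genes likewise had ranges that did not overlap and were higher. In CPM the libraries stood at 10.7, 8.98 and 14.3 in SKI knockout and at 0.690, 0.492 and 0.652 in control, or 11.3 ± 2.72 and 0.611 ± 0.105 as means (SD, n = 3 each). The log2 fold change was 4.21 (SE 0.28) and lay between 4.03 and 4.38 under each alternative tried. SKI knockout replicate 3 had the highest PCDH12 count and the lowest shared gamma count of its group.

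The reads of PCDH12 are its own, apart from 108 exonic bases shared with RNF14 on the opposite strand. RNF14, a RING-type ubiquitin ligase gene, stood at 13.4 to 16.3 CPM in SKI knockout and 13.7 to 16.1 CPM in control (log2 fold change -0.04). Endothelial markers were measured because PCDH12 is known from that cell type. Of 11 such markers 2 were tested, and CDH5, PECAM1, TEK and CLDN5 were at 0 in every library. The list summed to 1.55 to 3.13 CPM in SKI knockout and 0.747 to 1.48 CPM in control. Most of it came from EGFL7, except in control replicate 2, where ESAM (0.356 CPM) was above EGFL7 (0.255 CPM). EGFL7, a gene for a secreted vascular protein, stood at 1.20 to 2.84 CPM in SKI knockout and 0.255 to 0.969 CPM in control (log2 fold change 1.56, edgeR adjusted p = 0.05004, just above the threshold). TIE1, a receptor gene with too few reads to be tested, stood at 0.127 to 0.229 CPM in SKI knockout and 0.0528 to 0.0837 CPM in control, without overlap. ESAM, a junction protein gene, fell (log2 fold change -1.76, edgeR adjusted p = 0.0404). Of 12 neuronal and glial markers 4 were tested, with sums of 25.8 to 43.8 CPM in SKI knockout and 31.4 to 39.5 CPM in control, mostly from L1CAM. SNAP25, SYT1, STMN2, ELAVL4 and NCAM1 were at 0 in every library. SYP, the synaptophysin gene, fell, at 0.795 to 1.18 CPM in SKI knockout against 4.63 to 5.33 CPM in control (log2 fold change -2.38, edgeR adjusted p = 0.000413). OLIG2, a glial transcription factor gene, stood at 6.11 to 6.38 CPM in SKI knockout and 2.51 to 4.44 CPM in control, without overlap (log2 fold change 0.75, edgeR adjusted p = 0.0760). Lymphoid markers summed to 2.05 to 5.87 CPM in SKI knockout and 0.967 to 1.41 CPM in control. This was mostly CD79A, the only one tested, which rose (log2 fold change 1.70, edgeR adjusted p = 0.016). The fibroblast and epithelial list summed to 4.84 to 9.85 CPM in SKI knockout and 2.82 to 5.29 CPM in control. That sum was mostly KRT8, the only one tested, with overlapping groups (log2 fold change 0.93, edgeR adjusted p = 0.0719). The part of these markers in the PCDH12 difference was not tested.

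**Figure D3:**
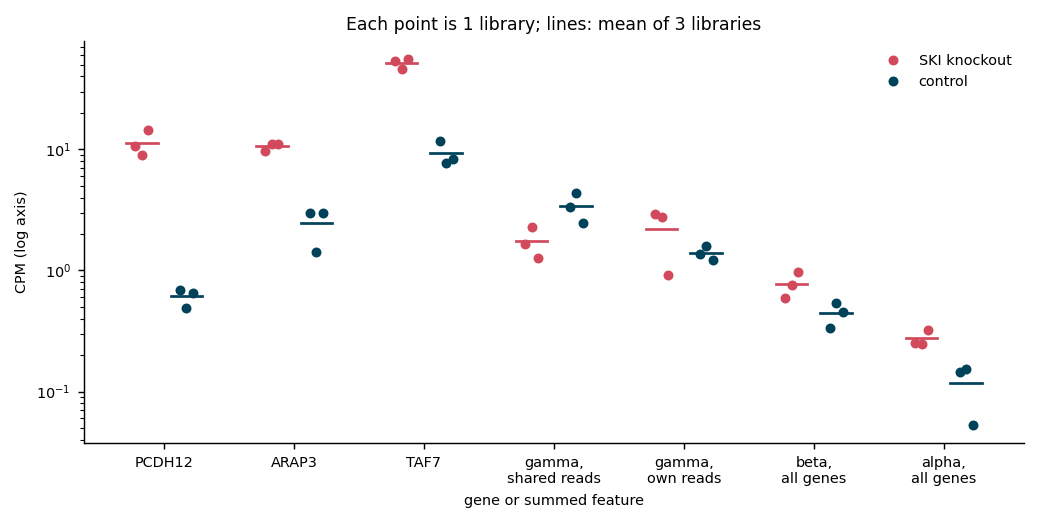
CPM on a log axis for PCDH12, ARAP3 and TAF7 and for summed protocadherin reads, with SKI knockout to the left of control in each pair, 1 point per library and lines at the mean of 3 libraries. PCDH12 averages 11.3 CPM in SKI knockout and 0.611 CPM in control, while shared gamma reads average 1.74 CPM in SKI knockout and 3.39 CPM in control.

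Genes that lie between and around the clusters were examined from a list of 25 neighbours, of which 21 were tested, 2 rose and 1 fell (14.3%, against 11.8% of all tested genes). Their median log2 fold change was 0.06. TAF7, an intronless gene for a subunit of the general transcription factor TFIID that sits between the beta and gamma clusters, stood at 54.0, 46.5 and 55.6 CPM in SKI knockout and 11.8, 7.65 and 8.37 CPM in control. The groups were far apart, and TAF7 rose with a log2 fold change of 2.49 (SE 0.20, edgeR adjusted p = 5.61e-05). AC005618.1, a transcribed feature between TAF7 and PCDHGA1 that was picked out after its values were seen, had a log2 fold change of 2.16 (SE 0.25, edgeR adjusted p = 0.000625). On the far side of the gamma cluster, ARAP3, a gene for a GTPase-activating protein, stood at 9.76, 11.0 and 11.0 CPM in SKI knockout and 2.99, 1.41 and 2.98 CPM in control. ARAP3 rose with a log2 fold change of 2.11 (SE 0.28, edgeR adjusted p = 0.00121).

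Of the other neighbours, RELL2 alone passed the test. DIAPH1, a formin gene that lies 2036 bases beyond the gamma constant exons, had a log2 fold change of -0.48 (SE 0.18, edgeR adjusted p = 0.118), and without SKI knockout replicate 2 it passed, with an adjusted p of 0.0281. HDAC3, a histone deacetylase gene of SKI-containing co-repressor complexes, had a log2 fold change of -0.06 (edgeR adjusted p = 0.834). RELL2 fell by 0.59 on the log2 scale (edgeR adjusted p = 0.0458), a call lost with library totals and without any one library. With the replicate number as a block, 2 neighbours passed, against 3 in the main fit. PCDH1, a further protocadherin gene of the band between ARAP3 and PCDH12, had 0 reads in every library.

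**Figure D4:**
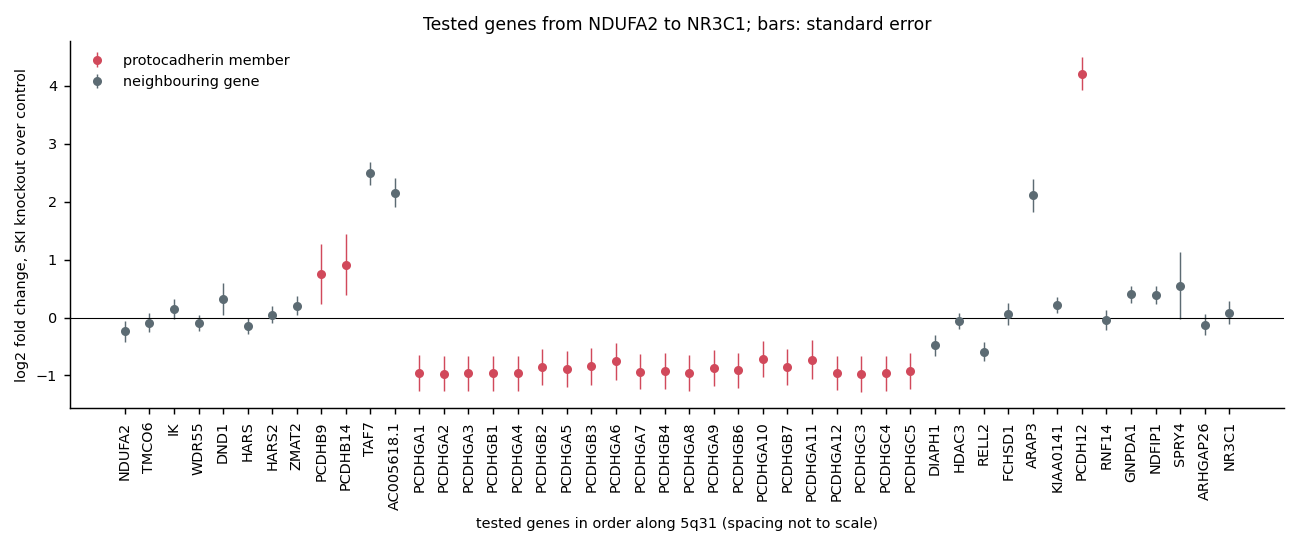
Log2 fold change, SKI knockout over control, with its standard error (vertical axis) for the tested genes in order along 5q31 (horizontal axis, not to scale), members in red and neighbours in grey. The gamma genes form a plateau between -0.97 and -0.72 that repeats their shared reads, with TAF7 at 2.49 before it and ARAP3 at 2.11 and PCDH12 at 4.21 after it.

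Promoter sequence was examined because each variable exon has a promoter of its own. RefSeq (GRCh38.p14) windows of 300 bases around the annotated start were found for 46 of the 55 clustered genes and for PCDH12. The 4 letters CGCT, the core of the conserved protocadherin promoter element, were present on the strand of the gene in 45 of the 46 windows (97.8%) and in 57.7% of 27305 promoters, and on either strand in 97.8% and 71.9%. The longer run CGCTGTT, searched after the sequences had been seen, was present on the strand of the gene in 12 of 19 gamma, 1 of 14 beta and 0 of 13 alpha windows, and in 1.47% of all promoters. The PCDH12 window held CGCT on the opposite strand only. The 100 bases before the annotated start are shown for a gamma gene with no own reads, PCDHGA6, PCDHGA10 and PCDH12, with CGCT and its reverse complement AGCG in capitals. They lie at chr5:141354921-141355020, chr5:141373791-141373890 and chr5:141412887-141412986 on the plus strand and at chr5:141958203-141958302 on the minus strand.
PCDHGA4 upstream: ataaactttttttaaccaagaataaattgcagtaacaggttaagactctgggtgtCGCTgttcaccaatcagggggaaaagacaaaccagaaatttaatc
PCDHGA6 upstream: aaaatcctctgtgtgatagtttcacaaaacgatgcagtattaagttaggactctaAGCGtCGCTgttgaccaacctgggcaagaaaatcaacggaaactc
PCDHGA10 upstream: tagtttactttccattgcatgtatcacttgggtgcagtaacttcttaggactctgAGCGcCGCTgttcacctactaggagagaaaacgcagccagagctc
PCDH12 upstream: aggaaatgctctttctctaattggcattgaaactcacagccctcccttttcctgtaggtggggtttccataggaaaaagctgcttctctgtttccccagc

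The 3 gamma windows resembled each other around the capitals, and PCDHGA4, with no own reads, held CGCT as did PCDHGA6 and PCDHGA10. A match of these letters is a description of the sequence and not a measured binding site.

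Regulators of the clusters were taken from a list of 33 genes for CTCF, cohesin, DNA methylation and silencing, all of them tested. None rose and 6 fell (18.2%, against 11.8% of all tested genes in either direction and 5.63% lower). At an unadjusted p under 0.05 by edgeR, 1 was higher and 7 were lower. Of all 16340 tested genes, 2302 were higher and 2130 (13.0%) were lower at that threshold. The median log2 fold change was -0.19. UHRF1, which guides maintenance methylation, stood at 73.3, 117 and 98.3 CPM in SKI knockout and 176, 196 and 190 CPM in control, without overlap (log2 fold change -0.96, edgeR adjusted p = 0.00623). DNMT1, the maintenance methyltransferase, stood at 254, 324 and 255 CPM in SKI knockout and 393, 496 and 478 CPM in control (log2 fold change -0.71, edgeR adjusted p = 0.0197). EHMT1, a histone methyltransferase, fell by 0.76 and its partner WIZ by 0.96 on the log2 scale (edgeR adjusted p = 0.00832 and 0.00733). TRIM28, the co-repressor of KRAB zinc-finger proteins, fell by 0.78 and the cohesin loader MAU2 by 0.71 (edgeR adjusted p = 0.0107 and 0.0182). The DNMT1 call was lost without SKI knockout replicate 1, control replicate 2 or control replicate 3, with edgeR adjusted p between 0.0751 and 0.101. TRIM28 and MAU2 were lost without control replicate 2 or 3, MAU2 also with library totals, and WIZ and EHMT1 without control replicate 3. UHRF1 alone of the 6 passed without control replicate 3, and UHRF1, WIZ and EHMT1 passed without control replicate 2.

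**Figure D5:**
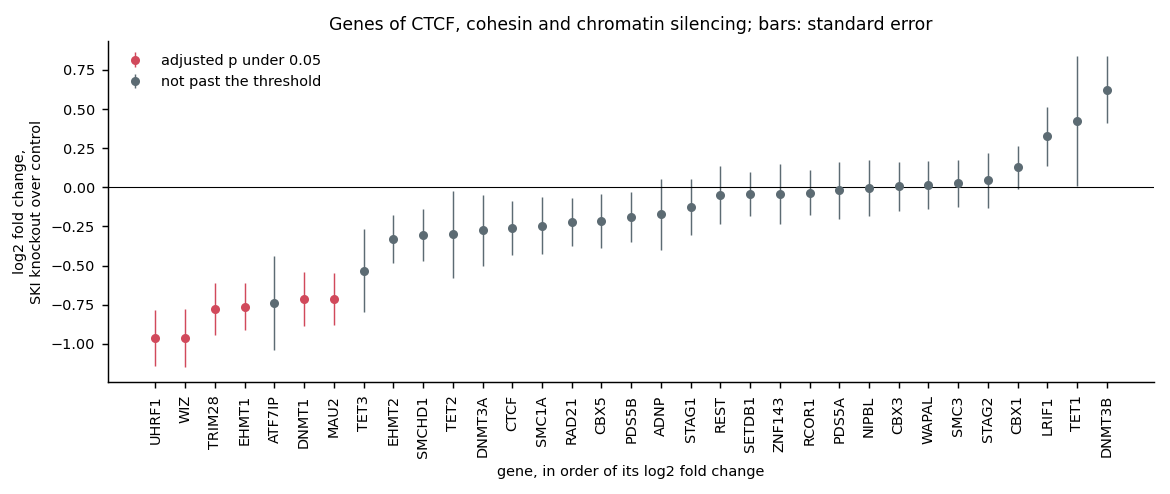
Log2 fold change, SKI knockout over control, with its standard error (vertical axis) for the 33 regulator genes in order of that value (horizontal axis), in red where the edgeR adjusted p was under 0.05. The 6 red points are UHRF1, WIZ, TRIM28, EHMT1, DNMT1 and MAU2, and CTCF and RAD21 lie among the grey ones at -0.26 and -0.22.

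Genes for CTCF, cohesin and SMCHD1 did not pass the test. CTCF had a log2 fold change of -0.26 (SE 0.17, edgeR adjusted p = 0.364) and the cohesin subunit gene RAD21 of -0.22 (SE 0.15, adjusted p = 0.380). SMCHD1, which holds clustered protocadherins silent in mouse, had -0.30 (SE 0.17, edgeR adjusted p = 0.270), and REST, the repressor of neuronal genes, -0.05 (SE 0.18, adjusted p = 0.900). The de novo methyltransferase genes DNMT3A and DNMT3B had -0.27 and 0.62 (edgeR adjusted p = 0.472 and 0.0831), and DNMT3B passed by DESeq2's Wald test (adjusted p = 0.0389) and by edgeR with no filter on low counts (adjusted p = 0.0380) or without SKI knockout replicate 3 (adjusted p = 0.0116).

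Relatives and partners of the members were sparse or mixed. Of 29 non-clustered protocadherins and large cadherins 14 were tested, 1 rose and 2 fell (21.4%, against 11.8% of all tested genes), with a median log2 fold change of -0.60. CELSR1, a seven-pass cadherin gene of planar cell polarity, stood at 69.2, 55.4 and 42.6 CPM in SKI knockout and 16.1, 12.5 and 29.8 CPM in control (log2 fold change 1.52, edgeR adjusted p = 0.00726). CDH24 stood at 32.4, 35.7 and 36.5 CPM in SKI knockout and 73.6, 83.3 and 96.9 CPM in control (log2 fold change -1.28, edgeR adjusted p = 0.000752). CDH26 stayed below 0.5 CPM in all libraries and fell by 1.47 on the log2 scale (edgeR adjusted p = 0.0483), a call lost without any one library. With library totals 2 genes of this list passed, as with a filter of 1 CPM in 3 libraries, against 3 in the main fit. Of 25 signalling and shedding partners 23 were tested, 2 rose and 1 fell (13.0%, against 11.8% of all tested genes), with a median of 0.04. FYN, a SRC-family kinase gene, rose by 0.83 and PDCD10, whose protein binds the cytoplasmic part of clustered protocadherins, by 0.59 (edgeR adjusted p = 0.00348 and 0.0395). CYFIP1, a subunit gene of the WAVE complex that alpha and other protocadherins recruit, fell by 0.55 (edgeR adjusted p = 0.0464). The CYFIP1 and PDCD10 calls were each lost without control replicate 1, 2 or 3 or SKI knockout replicate 1, and that of CYFIP1 also without SKI knockout replicate 3, with library totals and with no filter on low counts.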

How the data were processed

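A stranded mRNA kit was used for the libraries of HL60 RNA, per the labels' protocols. TopHat2, Subread with featureCounts, DESeq, DESeq2 and the build hg19 (GRCh37) are named, per the submitters' processing notes. The strand setting was not given in the sources used here, and neither were the gene annotation and the treatment of shared reads. A table of raw counts and gene lengths was deposited by the authors, with a second table with log2 fold changes and adjusted p-values. Counts were tested with edgeR 4.0.16 in R 4.3.3 (filterByExpr, TMM, quasi-likelihood, Benjamini-Hochberg threshold 0.05) on 16340 genes, with the group (SKI knockout over control) as sole term. DESeq2 1.42.0 was an alternative. The scripts were tested on simulated data. Standard errors come from the F statistic. CPM use TMM-scaled totals.

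Gene structures and order came from GENCODE 29 by symbol and promoters from RefSeq. PCDHGB5 was not analysed here. Members and lists were chosen with earlier results of these data known. The text names tested members, the untested ones with the most reads, up to 6 list genes past the threshold with the smallest p and 12 genes fixed by name. Alternatives were other scalings, filters, a replicate block, DESeq2 and leaving out each library.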

Additional observations from a re-analysis of the deposited data

How the results depend on the processing

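The median log2 fold change of tested clustered protocadherins kept its sign under every alternative, between -1.12 and -0.71 with 1 library left out and -0.99 when centred on the 5q31 neighbours. PCDH12 lay between 4.03 and 4.38. The number of clustered genes lower at an adjusted p under 0.05 was 0 with edgeR, 18 with DESeq2, 17 with no filter on low counts and 0 to 17 with 1 library left out, the highest without SKI knockout replicate 2. All of those called lower were gamma genes, whose calls repeat 1 shared measurement. Over all tested genes, 920 were lower with edgeR, 1217 with DESeq2, 1223 with no filter and 1078 without SKI knockout replicate 2. PCDHA1 was the 1 clustered gene called higher with no filter. Genes called over the whole table were 440 to 1410 higher and 300 to 1078 lower with 1 library left out, and 1630 higher with no filter. Leaving out 1 library gave 1 to 7 regulators, 2 to 3 neighbours, 2 to 4 non-clustered protocadherins and cadherins and 1 to 3 partners past the threshold, and no filter gave 6 of the non-clustered list. Deviations of same-numbered libraries correlated at -0.09, 0.30 and -0.04 for replicates 1, 2 and 3. These values did not settle whether replicate numbers pair the samples, and the main fit treated the libraries as unpaired. With the replicate number as a block, 18 clustered genes, all of them gamma, were lower, against 1004 over all tested genes. Of the partners 1 passed with this block, FYN, while CYFIP1 and PDCD10 did not. A fit chosen after seeing the data, with the gamma genes replaced by 1 shared feature and their own reads, called 1011 genes higher and 923 lower and 0 of the clustered features. Where calls were lost or gained, the cause was not tested. Shared counts of 66 to 256 reads per library limit the precision of the gamma cluster.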
